A study of Drosophila melanogaster with 2 samples.

Results

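Binding of the CG7745 protein was examined at 9 genes of the fly JAK-STAT pathway and the Socs family. They include the ligand genes upd1, upd2 and upd3, the receptor gene dome, the kinase gene hop and the transcription factor gene Stat92E. The others are the suppressor of cytokine signalling genes Socs16D, Socs36E and Socs44A. The 9 genes are among 13945 protein-coding genes on the main chromosome arms. Each was matched by symbol in the Ensembl annotation of build dm6. The genes were chosen by name with earlier results from these peak lists known, among them the strong Socs16D peak, so all counts, signals and ranks at them are a description with no test. The assay was ChIP-seq, which sequences the DNA pulled down with a chosen protein. The libraries were labelled as biological replicates 2 and 3 of a single group (n = 2), from whole Drosophila melanogaster embryos aged 0 to 12 hours. All of them carried a transgene for CG7745 with green fluorescent protein at its C-terminus, in 1 fly line, and the sample description gives an anti-GFP antibody. Whole embryos of a wide age range mix many cell types and stages, and the peaks do not show in which cells the protein was bound. The labels name no second condition.

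In the JAK-STAT pathway, a secreted Unpaired (Upd) ligand binds the receptor Domeless (dome), which activates the Janus kinase Hopscotch (hop). The kinase phosphorylates Stat92E, which then enters the nucleus and binds DNA at a pair of inverted half-sites with the letters TTCNNNGAA. The pathway acts in embryonic segmentation, in the trachea, gut and gonad, and in blood cells. SOCS proteins carry an SH2 domain and a SOCS box and restrain cytokine signalling, and in flies Socs36E is both a target and an inhibitor of the pathway. Peaks measure neither expression nor pathway activity.

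The authors' irreproducible discovery rate (IDR) set held 8 summits at 3 of these genes. In these files the IDR set is the strongest pooled peaks by signal, down to a last rank, so its members need not rank alike in the replicates. The genome sequence around 6 of them is shown because it carries the letters described with the results. The other 2 windows reach into untranslated regions and are given by position only. Each window is dm6 sequence of the plus strand, from 50 bp before to 50 bp after the summit. Capitals mark the STAT consensus TTCNNNGAA, the GATA-type motif AGATAA, or runs of at least 3 AC units, on either strand.
Socs16D intron, chrX:17827121-17827221: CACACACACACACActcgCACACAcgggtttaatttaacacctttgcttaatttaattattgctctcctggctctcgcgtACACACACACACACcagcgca
Socs36E intron, chr2L:18148954-18149054: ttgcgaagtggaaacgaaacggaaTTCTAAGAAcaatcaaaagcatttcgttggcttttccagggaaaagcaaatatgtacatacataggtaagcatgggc
Socs36E intron, chr2L:18145409-18145509: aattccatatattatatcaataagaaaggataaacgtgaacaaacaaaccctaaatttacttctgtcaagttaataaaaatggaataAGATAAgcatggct
Socs36E promoter, chr2L:18152426-18152526: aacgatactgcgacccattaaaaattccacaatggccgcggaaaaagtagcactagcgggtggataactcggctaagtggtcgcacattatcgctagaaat
Stat92E intron, chr3R:20542392-20542492: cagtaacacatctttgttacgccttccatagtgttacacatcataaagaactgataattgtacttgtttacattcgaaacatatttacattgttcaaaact
Stat92E intron, chr3R:20548414-20548514: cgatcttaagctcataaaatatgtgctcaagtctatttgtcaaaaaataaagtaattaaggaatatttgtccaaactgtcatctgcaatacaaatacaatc
The first of these windows holds AC runs on both sides of its summit, the second a STAT consensus match, the third a GATA-type match, and the other 3 none of the marked motifs.

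Summits of the IDR set lay at 2 of the 3 Socs genes and at the STAT gene. None lay at Socs44A or at the ligand, receptor and kinase genes. Socs16D had 2 IDR summits, Socs36E 3 and Stat92E 3, counted in the gene body plus 5 kb upstream. Thus 3 of the 9 genes held an IDR summit, where 14.7% of all protein-coding genes did. The same 3 genes were those with an IDR summit within 500 bp of a transcription start site (TSS), which 6.32% of protein-coding genes had. In the list called on both replicates pooled, 8 of the 9 genes had a summit, against 68.4% of protein-coding genes. In replicate 2 it was 8 of 9 (against 70.2%) and in replicate 3 it was 9 of 9 (against 69.3%). These longer lists hold 29981 to 30000 nuclear peaks each, and since most genes have a summit there, presence alone says little.

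Window length and chromosome matter for these counts. The 3 genes with IDR summits have windows of 11.8, 18.7 and 22 kb, where the median over protein-coding genes is 7.17 kb. Among genes whose window is over 10 kb, 26.1% held an IDR summit, as did 3 of the 6 listed genes of that length. Having 3 or more IDR summits was rarer, at 1.25% of all protein-coding genes and 4.45% of those with a window over 10 kb, and Socs36E and Stat92E were among them. Of the 9 genes, 6 lie on chromosome X, where 9.56% of genes held an IDR summit, and of these 6 only Socs16D did. The comparisons by length and chromosome were added after the values were seen.

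**Figure D1:**
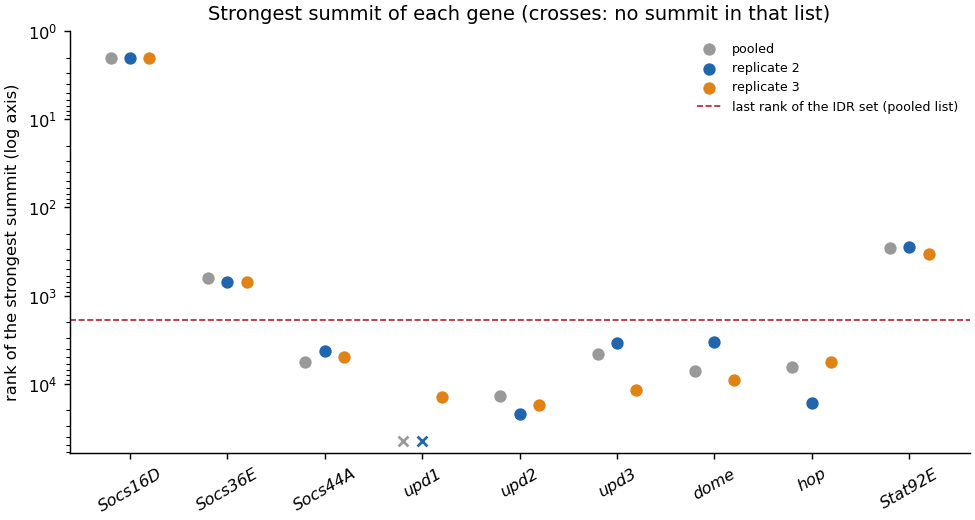
Rank by signal of the strongest summit of each gene (log axis, rank 1 at the top) in the pooled list and in each replicate; crosses mark lists with no summit and the dashed line is the last rank of the IDR set. Socs16D ranked 2 in all 3 lists, Stat92E and Socs36E lay between 283 and 705, and the other 6 genes had ranks of 3348 or higher numbers.

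The ligand genes had few summits, all of them weak. upd2, upd3 and upd1 lie in a cluster on chromosome X (18240654 to 18309291). With 5 kb to each side, this 78.6 kb stretch held no IDR summit. Over the whole of X the IDR set had 0.00752 summits per kb, so few are due in a stretch of this length. The pooled list had 9 summits in the stretch, or 0.114 per kb, against 0.19 per kb over the whole of X. Replicate 2 had 11, or 0.14 per kb against 0.178 over X, and replicate 3 had 14, or 0.178 per kb against 0.187. The difference from X was thus smaller in each replicate than in the pooled list. The strongest pooled one, at 18238085, ranked 3158 and lay outside the windows of the 3 genes.

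Among the ligand genes, upd3 (FBgn0053542, X, 18277233 to 18284596) had the strongest summit. It lay in an intron, 5359 bp downstream of the TSS, and ranked 4640 in the pooled list, 3429 in replicate 2 (signal 42.2) and 11727 in replicate 3 (signal 33.8). upd2 (FBgn0030904, X, 18240654 to 18243284) had a weak summit 225 bp upstream of its TSS, with signal 17.1 in replicate 2 and 27.1 in replicate 3, at ranks 21909 and 17432. At upd1 (FBgn0004956, X, 18305354 to 18309291) no summit was listed in the pooled list or in replicate 2. Replicate 3 had a single summit 3497 bp upstream, at rank 14154. It lay nearer to the start of the noncoding gene lncRNA:CR45609, at -862 bp. The nearest IDR summit to each of these 3 genes was in the Socs16D peak, at a distance of 415896 bp from upd2, 449845 bp from upd3 and 480871 bp from upd1.

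The receptor and kinase genes had weak summits. At dome (FBgn0043903, X, 19676061 to 19683518) the pooled list had 4 summits, none of which had a replicate 3 summit within 100 bp. The strongest, in the 5′ UTR 175 bp downstream of the TSS, ranked 7192 in the pooled list and matched a replicate 2 summit of rank 3348. Replicate 3 instead had its strongest summit 328 bp upstream of dome, at rank 9135 and 38 bp from the TSS of the neighbouring ubiquilin gene Ubqn, and a weaker one in the dome 5′ UTR at rank 17459. Both libraries thus had summits near the dome start, at positions more than 100 bp apart.

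At hop (FBgn0004864, X, 11360930 to 11368098) all 4 pooled summits were upstream of the gene and nearest to the TSS of another gene. These were Tim8, which encodes a mitochondrial import protein, and dlg1, which encodes the scaffold protein Discs large. The strongest hop summit ranked 6491 in the pooled list, 22576 in replicate 2 and 5685 in replicate 3, and both replicates placed it on the same base, 11370583. No list placed a summit inside the hop gene body. Neither dome nor hop had an IDR summit in its window: the nearest were 14874 bp from the dome TSS and 160425 bp from the hop TSS. The one nearest to dome, at 19668644, lay past the 3′ end of the gene, and so closer to the gene body than to the TSS.

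At Stat92E, the gene of the pathway's transcription factor (FBgn0016917, 3R, 20535323 to 20552311, minus strand), binding lay near an internal start site and in introns. The strongest IDR summit, at 20550736, was 371 bp downstream of the TSS at 20551107, the more downstream of 2 annotated TSS positions, and within the 5′ UTR of 6 of the 11 transcripts. All 3 lists placed this summit on the same base. Its signal was 113.6 in replicate 2 and 165.4 in replicate 3, at ranks 283 and 344, and it ranked 289 in the pooled list. These ranks lie close together in both libraries.

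The other IDR summits of Stat92E were intronic, 2643 and 8665 bp downstream of the nearest Stat92E TSS. The one at 20548464 had signals of 68.4 in replicate 2 (rank 1061) and 142.7 in replicate 3 (rank 472). The one at 20542442 had signals of 68.1 in replicate 2 (rank 1073) and 165.8 in replicate 3 (rank 341), where it was the strongest summit of the gene. Both thus stood higher in the order of replicate 3. The metallothionein genes MtnD and MtnE have a TSS nearer to the second of these summits, 7480 and 7738 bp away. In all, 19 pooled summits lay in the Stat92E window (0.864 per kb, against 0.273 per kb over the windows of all protein-coding genes), and 259 protein-coding genes had 19 or more.

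Socs16D (FBgn0030869, X, 17820764 to 17827564, minus strand) carried the strongest binding of the 9 genes by far. The summit at 17827171 lay in an intron, 349 bp downstream of the nearest TSS. Its signal was 1297 in replicate 2 and 1888 in replicate 3, and it ranked 2 in each library and in the pooled list. The replicates placed it 5 and 6 bp from the pooled summit. In the pooled list its signal of 3195 was 72.1 times the list's median. The peak was 1055 bp wide, and 8 of the IDR summits (0.427%), its own included, lay in peaks at least that wide.

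The same peak held a second IDR summit at 17827388, in the 5′ UTR, 132 bp downstream of the TSS and 217 bp from the first. Its order differed between the libraries: signal 289.6 and rank 32 in replicate 2, and signal 136.9 and rank 523 in replicate 3. The first summit's signal was 4.48 times that of the second in replicate 2 and 13.8 times in replicate 3. Both summits are thus found in both libraries, with unequal balance between them. The remaining 9 pooled summits of the Socs16D window ranked from 3477 to 28000. The strongest of them, 3309 bp upstream, lies at the start of the neighbouring gene CG6398 and ranked 21231 in replicate 2 and 1853 in replicate 3.

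Socs36E (FBgn0041184, 2L, 18138675 to 18152417, minus strand), the feedback inhibitor of the pathway, had IDR summits at its promoter and in its introns. The strongest was intronic, at 18145459, 6958 bp downstream of the TSS. It lay 361 bp downstream of the start of the noncoding gene lncRNA:CR44478. Its signal was 80.2 in replicate 2 and 122 in replicate 3, at ranks 705 and 695. The promoter summit at 18152476, 59 bp upstream of the TSS, had signals of 78.3 in replicate 2 (rank 760) and 66.6 in replicate 3 (rank 2718). The third, at 18149004, had signals of 20 in replicate 2 (rank 16995) and 101.3 in replicate 3 (rank 1075).

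The Socs36E summits therefore differed in how evenly the libraries supported them. The strongest stood at like ranks in both, the promoter summit stood higher in replicate 2, and the summit at 18149004 rested mainly on replicate 3. With signal 122.9 and pooled rank 1831, this last one is also the weakest IDR summit at these genes. Just below the IDR set came the pooled summits at Stat92E, 3622 bp upstream (signal 102.5, rank 2762), and at Socs36E, 818 bp downstream (signal 100.7, rank 2849).

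**Figure D2:**
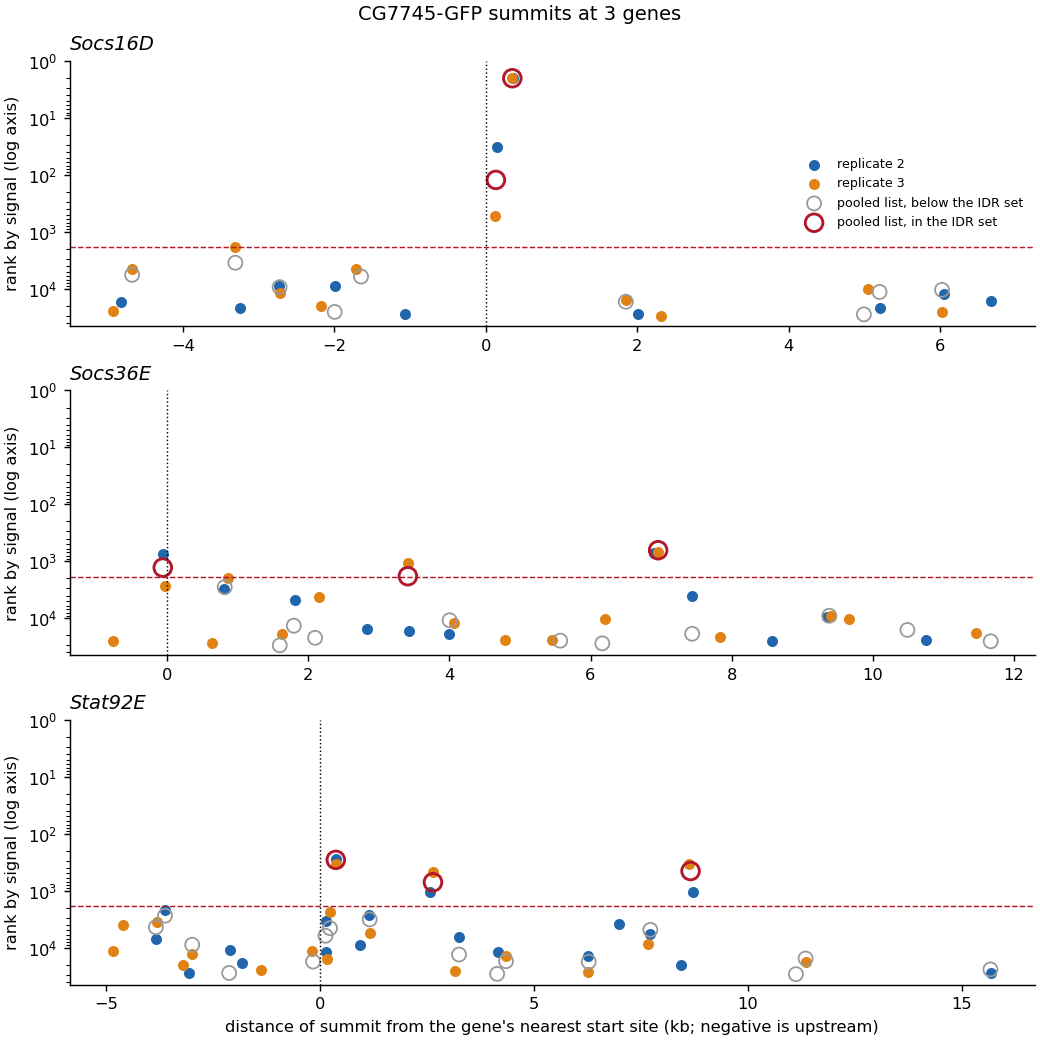
Rank by signal (log axis, rank 1 at the top) of every summit in the gene body plus 5 kb upstream of Socs16D, Socs36E and Stat92E, against its distance in kb from the nearest TSS of the gene; filled points are the replicates, grey circles the pooled list below the IDR set, red circles the IDR set, and the dashed line is the set's last rank. The Socs16D summits of the IDR set sit close to the start, while those of Socs36E and Stat92E extend to 6958 and 8665 bp downstream of the gene's nearest TSS.

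Socs44A (FBgn0033266, 8127575 to 8129476 on the right arm of chromosome 2), the shortest of the 9 genes, had no IDR summit, and the nearest was 18694 bp from its TSS. A pooled summit 164 bp upstream of its TSS ranked 5751. That summit had signal 16.9 in replicate 2 (rank 22405) and 51 in replicate 3 (rank 4970). A second pooled summit, 4729 bp upstream, ranked 5651 and lay 155 bp downstream of the TSS of the neighbouring gene Asap. The 3 Socs genes thus spanned the range from rank 2 to ranks above 5000 in the pooled list.

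Over the 9 genes, 56 pooled summits were listed, 24 of them in introns, 18 upstream, 7 in coding exons, 4 in 5′ UTRs and 3 in 3′ UTRs. Of all 56 pooled summits, 27 were nearest to the TSS of another protein-coding gene, and 15 of the 18 upstream summits were among them. Most binding in the upstream stretches thus cannot be tied to the listed gene by distance, nor can some inside the genes. Just beyond 5 kb upstream lay stronger summits of neighbours, such as the one 8510 bp upstream of Stat92E at CG5191 (signal 529.5, rank 66).

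Replicate 2 had a summit within 100 bp of 37 of the 56 pooled summits (66.1%) and replicate 3 of 38 (67.9%). Both replicates had 1 at 27 (48.2%), where the value over all 26012 pooled summits at protein-coding genes was 33.2%. All 8 IDR summits were matched in both, as were 94% of the 1647 IDR summits at all protein-coding genes. Among the 48 weaker summits it was 19 (39.6%), against 29.1% over all protein-coding genes. Across the 27 summits found in both libraries, Spearman's rho between the replicate ranks was 0.556, and 0.559 across the 8629 such summits at all protein-coding genes. The points share the libraries and 1 control, with which all lists were called.

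**Figure D3:**
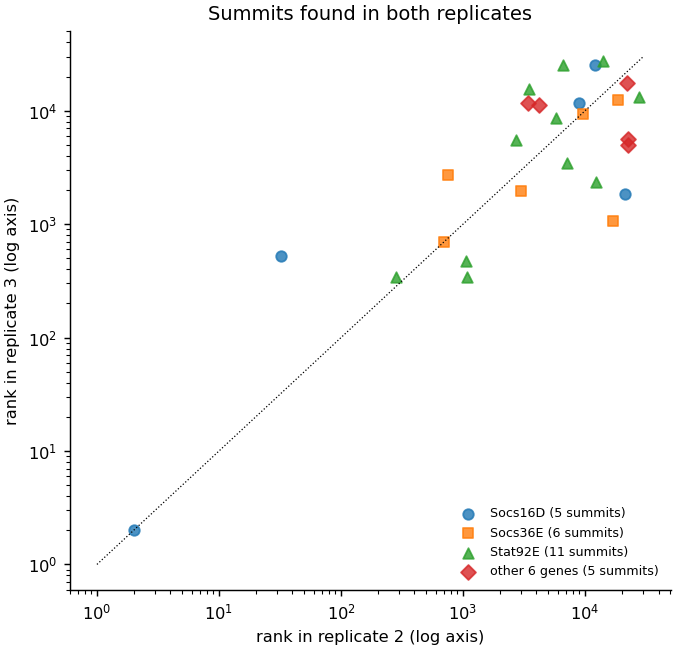
Rank in replicate 2 against rank in replicate 3 (both log axes) for the 27 pooled summits at the 9 genes that had a summit within 100 bp in both replicates; the dotted line marks equal ranks. The strong Socs16D summit is at rank 2 in both, the second Socs16D summit is at 32 and 523, and ranks spread widely among the weak summits.

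The windows' letters differed between the strong summits. In the Socs16D intron window, shown above, the longest AC run was 14 bp, and 38 of the bases lay in runs of at least 2 AC units. The run that opens the window is cut by the window's edge and is 18 bp long in the genome. Repeat masking in the reference covered 74 of the window's bases, where the median over IDR windows was 20. Of all IDR windows, 12 (0.64%) held an AC run of at least 14 bp. A run of at least 4 AC units was in 2 of the 8 windows, those of Socs16D at 17827171 and of Stat92E at 20550736, against 5.34% of all IDR windows, 3.93% of all pooled windows and 2.15% of windows centred on 19252 protein-coding TSS positions. This feature was chosen after the sequences were seen.

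Across the IDR set, AC runs of at least 4 units did not follow the signal in order. They were in 3 of the 25 strongest windows (12%, exact 95% interval 2.55 to 31.2%), and in 4%, 6.5%, 4.55% and 5.55% of the 4 classes of lower rank, from stronger to weaker. The interval of the first class covers all the other shares. Runs of at least 6 units were in 2 of the 25 strongest windows (8%, interval 0.984 to 26%), that of Socs16D among them. In the 4 classes of lower rank the shares were 0%, 1.5%, 0.628% and 1.49%, and that interval covers only 1.5% and 1.49%. Whether long runs go with the signal was not tested. Reads at such repeats can match several places, and their handling is not stated.

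The Socs36E gene was rich in the STAT consensus, and few of the matches lay near CG7745 summits, which cover little of its window. Its window held 22 matches of TTCNNNGAA, a palindrome in its fixed letters that reads the same on both strands, 18 of them in introns. That was 1.17 per kb, against 0.315 per kb over the windows of all protein-coding genes, and of the 3482 windows over 10 kb none held more per kb. Of the 22, 1 lay within 100 bp of an IDR summit, a stretch that makes up 3.22% of the window. It is the match printed above in capitals, at 18148978 to 18148986, 22 bp from the summit at 18149004. That summit is the weakest IDR summit at these genes and rested mainly on replicate 3. Within 100 bp of pooled summits, 15% of the window, lay 2 of the 22. These counts are small, and whether summits favour or avoid the matches was not tested.

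Stat92E held 11 matches (0.5 per kb), none within 100 bp of a pooled summit. The closest was 117 bp from the intronic IDR summit at 20548464. Socs16D held 1 match, 23 bp from a weak pooled summit 4672 bp upstream. Over the summit windows, TTCNNNGAA was in 1 of the 8 IDR summits of these genes, in 2.45% of all IDR windows and in 2.78% of TSS windows. The form with 4 bases between the half-sites was in 1 of 8 as well, in the same window at 18149004, and in 2.93% of all IDR windows. A match is a description of the letters and does not show that Stat92E binds there.

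**Figure D4:**
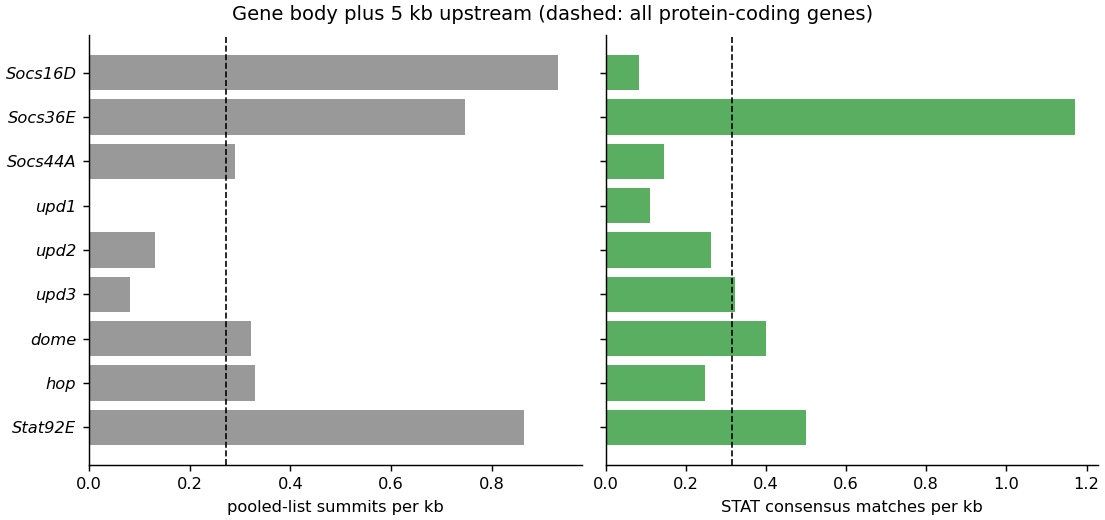
Pooled-list summits per kb (left) and matches of TTCNNNGAA per kb (right) in the gene body plus 5 kb upstream of each gene, with dashed lines for all protein-coding genes (0.273 and 0.315 per kb). Socs16D, Stat92E and Socs36E have the most summits per kb, and Socs36E alone reaches 1.17 matches per kb.

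Of the other motifs searched on both strands, AGATAA was in 1 of the 8 windows (8.75% of all IDR windows), GAGAG, bound by the GAGA factor, in 1 (17.1%), and the E-box CANNTG in 2 (39.2%). CAGGTA, bound by Zelda, TATCGATA, bound by DREF, and GGTCACACT, a core promoter element, were in none (2.19%, 1.44% and 0.8%). No motif was thus common to the 8 windows.

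Among 13 regulators of the pathway, 6 had an IDR summit in the gene body plus 5 kb upstream (46.2%, against 14.7% of all protein-coding genes). At a promoter, 3 had one (23.1%, against 6.32%). These shares are not matched for window length, and of genes with a window over 10 kb, 26.1% held an IDR summit. The promoter summits were at Hrs (signal 319.8, -12 bp), Rab5 (318.3, 208 bp) and apt (253.1, -226 bp), whose strongest IDR summit lay elsewhere in its window (634.8). Hrs and Rab5 act in endosomal trafficking of receptors, and apt encodes a transcription factor that limits STAT signalling in border cells of the fly ovary. The 3 promoter summits had IDR ranks between 213 and 362. The phosphatase gene Ptp61F had 4 IDR and 53 pooled summits, and is named after its values were seen.

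Of 21 genes reported to respond to the pathway, 4 had an IDR summit (19%), a share near the 14.7% of all protein-coding genes. None had one at a promoter, where the share over all protein-coding genes was 6.32%. Socs36E, also a target of the pathway and with a promoter IDR summit, was counted among the 9 genes and not in this list. The 4 were zfh1, crb, chinmo and vvl, with strongest signals of 197.5, 179, 171.1 and 133, named after their values were seen. The stress-induced Turandot genes of the list, TotA to TotZ, had none. For comparison, 5 of the 14 genes of the Eiger and JNK pathway had an IDR summit (35.7%, against the same 14.7%, again not matched for window length). In both sets a single promoter far outranked the rest: egr, the gene of the ligand Eiger, at rank 1 and Socs16D at rank 2. The Eiger set was picked for comparison because it has such a peak, so this likeness is not a finding. The next promoter summit in the Eiger set, at Traf4, ranked 1076. Among the 9 JAK-STAT and Socs genes, the next beyond the Socs16D peak was that of Stat92E at 289. These lists were not tested against each other.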

How the data were processed

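The deposited files were 4 peak lists on build dm6: 1 for each replicate, 1 called on both pooled, all against the same control alignment, and an IDR set derived from these 3 (100% of it falls among equally many top-signal pooled peaks), per the labels and the list of deposited files. Which aligner, peak caller and IDR threshold were used is not given in the sources used here. Each peak's signal is a deposited value of the authors' peak caller, with no stated scale, and was used only within a list, to rank peaks and for a few ratios between peaks, which hold only if the scale is linear. The deposited −log10 q values are tied at their top (1810 IDR peaks at 3.56) and did not serve for ranking. Read depth is unknown, and the list length of 30000 is not a depth.

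Mitochondrial peaks were left out. Genes and TSS positions came from Ensembl release 115 (FlyBase 6.54). Chromosome lengths of the Release 6 genome were checked against the peaks, and every peak ended within them. All 9 genes matched, and all list genes matched, smt3 through its synonym Sumo. Windows were the gene body plus 5 kb upstream, summits matched within 100 bp, and sequence windows reached 50 bp to each side of a summit.

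No test was made across genes, because the members and the gene lists were chosen with earlier results of these data known. The named genes were the 9 members, genes of each list with a promoter IDR summit, and genes with a TSS nearer to a member's IDR summit; others are neighbours or are named where a sentence says why. Exact intervals are Clopper-Pearson and cover counting only. The code was tested on simulated data. Scripts ran in Python 3.11.15 with pandas 2.3.3 and NumPy 2.4.6; matplotlib 3.10.9 drew the figures and SciPy 1.17.1 gave the intervals.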

Additional observations from a re-analysis of the deposited data

How the results depend on the processing

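The 3 genes with an IDR summit were Socs16D, Socs36E and Stat92E under each of the 7 alternatives tried, among them other upstream reaches, the stronger part of the IDR set, and equally many of the strongest peaks of either replicate alone. The share of all protein-coding genes with one, 14.7% as reported, moved between 5.89% (gene body alone) and 20.4% (10 kb upstream). Leaving out a replicate gave 3 to 3 genes with a summit, 7 to 8 summits and 2 to 3 genes bound at a promoter, 6 to 6 of the regulators, 3 to 4 of the responding genes and 4 to 6 of the Eiger and JNK genes. Of 61 alternative values, 54 stayed within 1.5 times of those reported. Among these were 38 pooled summits instead of 56 with the gene body alone, and 2 genes bound at a promoter instead of 3 within 250 bp, in the stronger part of the IDR set, or without replicate 2. With the gene body alone, 5 genes instead of 8 had a pooled summit. Summits matched in both replicates fell from 27 to 16 within 50 bp (28.6%, against 21% of pooled summits at all protein-coding genes). They fell to 12 among the 10000 strongest of each replicate (21.4%, against 13.7%). An AC run of 6 or more units was in 1 window instead of 2. The strongest pooled rank became 1948 at dome and 66 at Stat92E with 10 kb upstream, and 14700 at hop with 2 kb, because the window then took in or lost a neighbouring summit.

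No paired analysis was possible because replicates 2 and 3 form a single group. With 2 libraries, no read counts and a shared control, differences between the libraries in the strength of a summit could not be tested, and read depth as a limit on the weak summits is unknown.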
